A study of Mus musculus with 8 samples.

Results

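The genes described here encode 10 enzymes that make serine and carry one-carbon units from it: Phgdh, Psat1, Psph, Shmt1, Shmt2, Mthfd1, Mthfd1l, Mthfd2, Aldh1l2 and Gldc. They were chosen by name for their place in the pathway, with earlier results of these data known. Each was taken from its entry of highest mean FPKM (fragments per kilobase of transcript, scaled to the depth of the library) among 20388 genes. The sequenced RNA came from embryonic stem cells of tatsf1 flox/flox CreERT2 mice, in which tamoxifen activates the recombinase CreERT2 and Htatsf1 is deleted. The protein HTATSF1 binds RNA and works with the splicing machinery. The 4 groups, each of 2 libraries, were cells given tamoxifen for 48 h, ethanol (the control) for 48 h, tamoxifen for 72 h and ethanol for 72 h. All 4 groups carried the same floxed alleles and CreERT2 and were grown on mouse embryonic fibroblasts, which add their own RNA. Among the samples used here no group received tamoxifen without the floxed alleles, so loss of Htatsf1 and the action of tamoxifen or of the recombinase cannot be told apart. Nothing in the labels states that replicate libraries were grown as separate cultures, so the p-values measure library-to-library spread that may be technical.

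Phosphoglycerate, an intermediate of glycolysis, is turned into serine by the enzymes PHGDH, PSAT1 and PSPH in sequence. Serine hydroxymethyltransferases then pass a carbon from serine to tetrahydrofolate and release glycine, and folate enzymes in the cytosol and in mitochondria oxidise or reduce that carbon for purine, thymidylate and methionine synthesis. Mouse embryonic stem cells are known to draw one-carbon units from threonine as well, through threonine dehydrogenase and the glycine cleavage system.

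The libraries held between 8.99 and 16.8 M fragments as implied by the confidence bounds of the deposited values. Htatsf1 itself averaged 3.95 ± 0.25 FPKM with tamoxifen and 22.3 ± 0.92 FPKM with ethanol at 48 h, and 4.38 ± 0.36 FPKM with tamoxifen and 22.7 ± 0.02 FPKM with ethanol at 72 h (SD, n = 2 each). The deposited tables of all 48 h libraries carry one number in their names and those of all 72 h libraries another, with no meaning stated, so that number and time cannot be told apart. Genes were tested with limma on log2(FPKM + 1) over all 8 libraries and 11867 genes, and those with a Benjamini-Hochberg adjusted p of at most 0.05 are named as called. Markers of fibroblasts moved with the treatment: 28 of 30 were called higher with tamoxifen at 48 h and 29 of 30 at 72 h, and none was at 0 in any library. Their summed level ran from 1131 to 1132 FPKM with tamoxifen and from 773 to 811 FPKM with ethanol at 48 h, and from 1668 to 1779 FPKM with tamoxifen and from 875 to 904 FPKM with ethanol at 72 h. Acta2, the smooth muscle actin gene, averaged 104.7 ± 0.80 FPKM with tamoxifen and 36.3 ± 2.37 FPKM with ethanol at 72 h. Collagen gene Col1a1 averaged 123 ± 2.27 FPKM with tamoxifen and 53.3 ± 2.09 FPKM with ethanol. Of 14 embryonic stem cell markers tested, 8 were lower with tamoxifen at 72 h, among them the pluripotency factor Klf2 (48.1 ± 0.034 FPKM with tamoxifen, 71.3 ± 1.20 FPKM with ethanol) and the Nodal co-receptor Tdgf1 (308 ± 16.0 FPKM with tamoxifen, 428 ± 3.51 FPKM with ethanol). Their sum at 72 h ran from 3600 to 4046 FPKM with tamoxifen and from 4519 to 4672 FPKM with ethanol. At 48 h 1 of the 14 was called lower and 0 higher. The 48 h sum ran from 3371 to 3468 FPKM with tamoxifen and from 3511 to 3595 FPKM with ethanol. Sox2, a further marker, was listed at 0 in all 8 libraries, and whether that reflects the cells or the processing was not tested. The part of these shifts in the changes of the enzyme genes was not tested. In such bulk samples fewer cells of a type and less RNA per cell cannot be told apart.

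With tamoxifen at 72 h, transcripts of 9 of the 10 enzymes were lower than with ethanol, and Mthfd1 was the exception. On the log2(FPKM + 1) scale the fall was largest for Psat1, Mthfd1l and Shmt2, which stood at 64.2%, 65.4% and 66.4% of their ethanol means. At 48 h the same comparison called 5 enzymes lower, namely Psat1, Psph, Shmt2, Mthfd1l and Mthfd2, at between 75.5% and 81.0% of their ethanol means. Among all genes tested, 18.5% were called lower at 72 h and 4.47% at 48 h, and 38.5% and 12.4% were called in either direction. The enzymes were chosen with earlier results of these data known, so these shares do not make their counts an independent finding. Of the 48 h calls over all genes 63.8% were higher, and 51.6% were under median-ratio scaling, which left the enzyme counts at 5 and 9. That scaling raised the lower calls over all 11867 genes from 531 to 768 at 48 h and from 2192 to 2426 at 72 h. No enzyme was called higher by limma at either time, against 20.1% of all genes at 72 h and 7.88% at 48 h, and none was higher at an unadjusted p under 0.05 or in the authors' deposited table. The median log2 change of the 10 enzymes was -0.41 at 72 h and -0.24 at 48 h, beside -0.01 and 0.02 over all genes tested. Aldh1l2 passed the filter on low values only through its 72 h ethanol libraries, and without it the counts were 8 of 9 and 5 of 9. The 48 h count rests on few libraries: it was 3 without ethanol 48 h replicate 1, where Psat1 (adjusted p = 0.0582) and Shmt2 (0.0523) were lost, and 3 without ethanol 48 h replicate 2, where Psph (0.0584) and Shmt2 (0.0600) were lost.

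**Figure D1:**
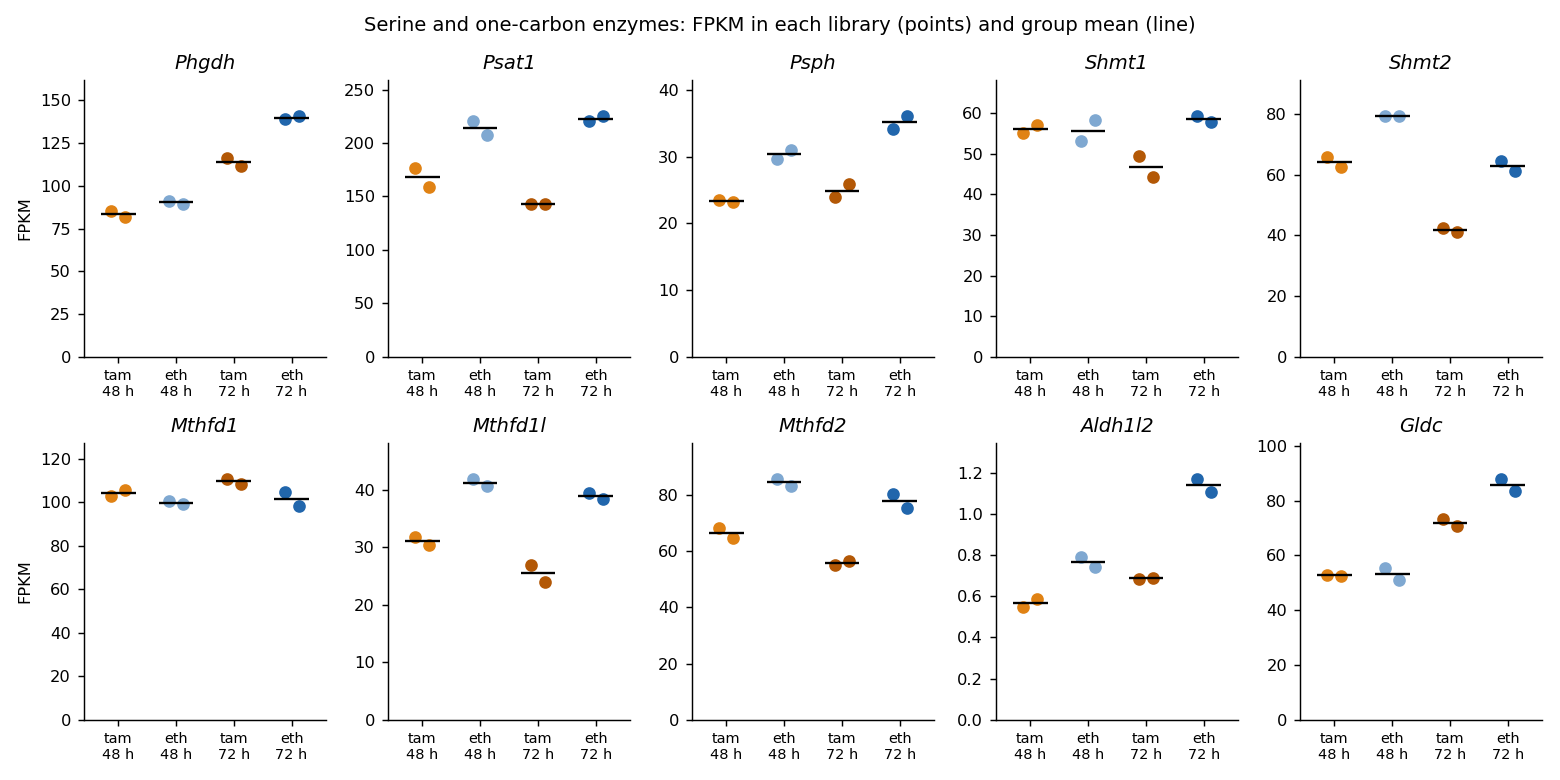
FPKM of each enzyme gene (vertical axes, each from 0) in the 8 libraries, with tamoxifen (tam) left of ethanol (eth) at each time. Points are libraries and the line is the mean of the 2 libraries of a group. At 72 h the tamoxifen points lie below the ethanol points for 9 genes and above them for Mthfd1. How many of all genes part in this way was not counted, so the 9 has no background. For 2 libraries against 2, the exact two-sided permutation test gives such a parting a p of 0.333.

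Stretches just upstream of 4 of these genes are shown because they represent different outcomes in the data: Psat1 and Mthfd2 were lower at both times and lie in different steps of the pathway, Shmt2 was lower at both times and carries a different motif, and Mthfd1 was not called at either time. Each is the 250 bases before the annotated start in RefSeq (build GRCm38.p6), written 5′ to 3′ on the strand of the gene. Psat1 has 2 annotated starts, and the window shown is the one that holds CCAAT, while the other holds none. The positions are chr19:15925060-15925309 (minus) for Psat1, chr6:83317605-83317854 (minus) for Mthfd2, chr10:127522445-127522694 (minus) for Shmt2 and chr12:76254982-76255231 (plus) for Mthfd1. Capitals mark CCAAT or its reverse complement ATTGG, and in Shmt2 the sequence GCGCATGCGC.
Psat1: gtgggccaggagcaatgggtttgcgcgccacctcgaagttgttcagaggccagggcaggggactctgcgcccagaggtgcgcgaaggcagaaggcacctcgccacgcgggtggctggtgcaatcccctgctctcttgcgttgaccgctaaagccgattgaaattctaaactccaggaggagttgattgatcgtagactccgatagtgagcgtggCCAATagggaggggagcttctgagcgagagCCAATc
Mthfd2: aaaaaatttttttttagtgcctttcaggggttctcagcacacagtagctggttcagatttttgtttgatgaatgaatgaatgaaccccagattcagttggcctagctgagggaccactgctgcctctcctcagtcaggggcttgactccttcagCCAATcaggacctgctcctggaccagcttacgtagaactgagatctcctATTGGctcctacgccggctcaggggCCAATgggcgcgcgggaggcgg
Shmt2: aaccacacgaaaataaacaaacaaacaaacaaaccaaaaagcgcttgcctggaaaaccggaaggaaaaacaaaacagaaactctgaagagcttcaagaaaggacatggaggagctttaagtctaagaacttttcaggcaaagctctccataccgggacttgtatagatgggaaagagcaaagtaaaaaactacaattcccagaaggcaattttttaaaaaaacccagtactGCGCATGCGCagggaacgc
Mthfd1: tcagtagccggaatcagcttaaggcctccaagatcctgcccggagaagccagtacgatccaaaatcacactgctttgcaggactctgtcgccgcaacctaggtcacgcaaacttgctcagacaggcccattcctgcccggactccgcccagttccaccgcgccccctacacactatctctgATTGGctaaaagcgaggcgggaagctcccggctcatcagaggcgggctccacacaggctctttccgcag

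RefSeq windows were matched for 9 of the 10 genes, with 2 for Psat1, giving 10 windows, and both strands were searched. The core of the C/EBP-ATF response element that ATF4 binds, TGATGNAA, was in 0 of the 10 windows and in 3.45% of 32851 promoter windows of that length. The MYC E-box CACGTG was in 0 of the 10, against 6.02% of all windows. CCAAT, the box bound by NF-Y, was in 7 windows of 7 genes, among them Mthfd1, against 33.8% of all windows. The palindromic NRF1 motif was found in Shmt2 only among the 10 windows, as GCGCATGCGC, against 3.74% of all windows, and that window holds no CCAAT box. Both CCAAT and the NRF1 motif were searched for after the sequences had been read. These matches describe letters in the windows and say nothing of binding.

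The serine synthesis genes come first. Phgdh (mm9 chr3:98117094-98143892), whose enzyme commits phosphoglycerate to serine, had 85.3 and 81.8 FPKM with tamoxifen and 91.1 and 89.6 FPKM with ethanol at 48 h. At 72 h it had 116 and 112 FPKM with tamoxifen and 139 and 141 FPKM with ethanol. The tamoxifen libraries lay below the ethanol libraries at both times, and both 72 h groups lay above both 48 h groups. The limma log2 change was -0.11 ± 0.05 (SE) at 48 h (adjusted p = 0.185) and -0.29 ± 0.05 at 72 h (adjusted p = 0.00138). In the authors' deposited table Phgdh was lower at 48 h as well, with a log2 change of -0.23 and an adjusted p of 0.00857. Phgdh also has 12 processed pseudogenes with at least 95% identity over at least 100 bases in the transcript annotation, among them Gm7901 with 98.7% over 1597 bases, so its level is uncertain where reads could be split.

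Psat1 (chr19:15979613-15999549), the aminotransferase of the second step, was the most abundant of the 10 transcripts in every library. It had 177 and 159 FPKM with tamoxifen and 221 and 208 FPKM with ethanol at 48 h. It had 143 FPKM in both tamoxifen libraries at 72 h and 220.3 and 225 FPKM in the ethanol libraries. The groups did not overlap at either time. The log2 change was -0.35 ± 0.06 at 48 h (adjusted p = 0.00545) and -0.64 ± 0.06 at 72 h (adjusted p = 3.5e-05). The unfiltered fit, made without the limit on low values, gave an adjusted p of 0.0631 at 48 h.

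Psph (chr5:130271434-130293129), the phosphatase that releases serine, had 23.6 and 23.2 FPKM with tamoxifen and 29.8 and 31.1 FPKM with ethanol at 48 h. The 72 h libraries had 23.9 and 25.9 FPKM with tamoxifen and 34.2 and 36.1 FPKM with ethanol. Tamoxifen libraries were below ethanol libraries at both times. Its log2 change was -0.37 ± 0.06 at 48 h (adjusted p = 0.00518) and -0.48 ± 0.06 at 72 h (adjusted p = 0.000241). Its exons share 452 of 4329 bases with Cct6a on the other strand, and the use of strand in counting is not given in the sources used here.

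Of the 2 serine hydroxymethyltransferase genes, Shmt2 alone was called at 48 h, and the difference between the 2 changes was not tested. Shmt1 (chr11:60602399-60624767), the cytosolic enzyme, had 55.2 and 57.1 FPKM with tamoxifen and 53.1 and 58.3 FPKM with ethanol at 48 h. In the 72 h libraries there were 49.4 and 44.2 FPKM with tamoxifen and 59.3 and 57.9 FPKM with ethanol. The groups overlapped at 48 h and parted at 72 h, with tamoxifen lower. In limma its log2 change was 0.01 ± 0.07 at 48 h (adjusted p = 0.93), with a sign that turned under another scaling and on leaving out some libraries, and -0.32 ± 0.07 at 72 h (adjusted p = 0.00422). Its exons share 184 of 3883 bases with Smcr8 on the other strand.

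Shmt2 (chr10:126954179-126959500), the mitochondrial enzyme, had 65.8 and 62.5 FPKM with tamoxifen and 79.2 and 79.3 FPKM with ethanol at 48 h. At 72 h it had 42.3 and 41.2 FPKM with tamoxifen and 64.4 and 61.3 FPKM with ethanol. The groups did not overlap at either time, and the 72 h tamoxifen libraries were the lowest of all 8. Its log2 change was -0.30 ± 0.05 at 48 h (adjusted p = 0.00696) and -0.58 ± 0.05 at 72 h (adjusted p = 3.16e-05). The 48 h call was lost without tamoxifen 48 h replicate 2 (adjusted p = 0.0526) and without either ethanol library of that time. Its exons share 32 bases with Ndufa4l2 on the other strand, as those of Mthfd1 share 37 with Gm47525.

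Among the folate enzymes, Mthfd1 (chr12:77356219-77420807), which encodes the cytosolic trifunctional enzyme, had 103 and 106 FPKM with tamoxifen and 101 and 99.2 FPKM with ethanol at 48 h. The levels at 72 h were 111 and 108 FPKM with tamoxifen and 105 and 98.4 FPKM with ethanol. Its tamoxifen libraries were the higher ones at both times, by less than the test could call. The log2 change was 0.06 ± 0.05 at 48 h (adjusted p = 0.48) and 0.11 ± 0.05 at 72 h (adjusted p = 0.126). The 95% interval at 72 h ran from -0.01 to 0.23.

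Mthfd1l (chr10:6179460-6373466), the mitochondrial formate-releasing synthetase, had 31.9 and 30.4 FPKM with tamoxifen and 41.9 and 40.6 FPKM with ethanol at 48 h. The 72 h libraries had 27.0 and 24.0 FPKM with tamoxifen and 39.5 and 38.5 FPKM with ethanol. The 2 treatments did not overlap at either time. In limma its log2 change was -0.40 ± 0.07 at 48 h (adjusted p = 0.0047) and -0.60 ± 0.07 at 72 h (adjusted p = 9.04e-05), and the unfiltered fit gave an adjusted p of 0.0549 at 48 h.

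Mthfd2 (chr6:83255698-83267598), the mitochondrial dehydrogenase and cyclohydrolase, had 68.5 and 64.8 FPKM with tamoxifen and 85.9 and 83.5 FPKM with ethanol at 48 h. At 72 h it had 55.2 and 56.6 FPKM with tamoxifen and 80.5 and 75.4 FPKM with ethanol. Every tamoxifen library was below every ethanol library, whatever the time. Its log2 change was -0.34 ± 0.06 at 48 h (adjusted p = 0.00461) and -0.47 ± 0.06 at 72 h (adjusted p = 0.000152).

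Aldh1l2 (chr10:82950192-82996885), the mitochondrial enzyme that oxidises formyltetrahydrofolate, was close to the limit of the filter. It had 0.547 and 0.588 FPKM with tamoxifen and 0.792 and 0.742 FPKM with ethanol at 48 h, and 0.685 and 0.691 FPKM with tamoxifen and 1.17 and 1.11 FPKM with ethanol at 72 h, resting on 34.0 to 113 implied fragments a library. Tamoxifen libraries were below ethanol libraries at both times. The log2(FPKM + 1) scale understates the change of so low a gene: it was -0.17 ± 0.11 at 48 h (adjusted p = 0.33) and -0.34 ± 0.11 at 72 h (adjusted p = 0.0289), while the tamoxifen mean was 74.0% of the ethanol mean at 48 h and 60.3% at 72 h. The 72 h call was lost on leaving out any 1 of the 4 libraries (adjusted p from 0.0805 to 0.114) and in a fit of the 72 h libraries alone (0.0627). In the authors' deposited table its adjusted p was 0.195 at 48 h and 0.00248 at 72 h. Its exons share 1056 of 7503 bases with D10Wsu102e on the other strand, and whether reads of that gene add to this low signal was not tested.

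Gldc (chr19:30172931-30249931), the decarboxylase of the glycine cleavage system, had 52.8 and 52.6 FPKM with tamoxifen and 55.4 and 51.2 FPKM with ethanol at 48 h. The 72 h values were 73.2 and 70.6 FPKM with tamoxifen and 87.9 and 83.4 FPKM with ethanol. The treatments overlapped at 48 h and parted at 72 h. The log2 change was -0.02 ± 0.06 at 48 h (adjusted p = 0.894) and -0.25 ± 0.06 at 72 h (adjusted p = 0.00694). The 72 h call was lost without ethanol 72 h replicate 1 (adjusted p = 0.0539).

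**Figure D2:**
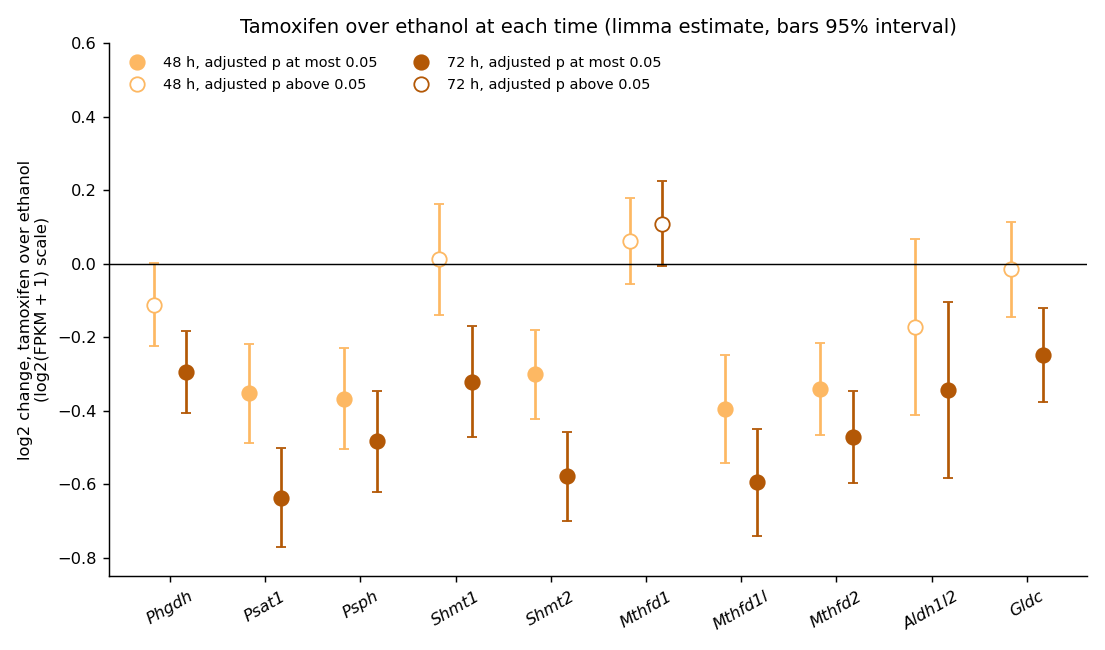
Log2 change of each enzyme gene, tamoxifen over ethanol, on the log2(FPKM + 1) scale (vertical axis), at 48 h (light) and 72 h (dark), with 95% intervals from the limma fit. Filled points have an adjusted p of at most 0.05: 5 genes at 48 h and 9 at 72 h, all below 0, while Mthfd1 is open at both times.

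Whether the change at 72 h differed from that at 48 h was tested as a contrast of its own, and limma called 0 of the 10 enzymes (2.00% of all genes were called higher, 1.45% lower and 3.45% either way in that contrast). At an unadjusted p under 0.05, 5 enzymes had a lower change at 72 h: Shmt1 (log2 difference -0.33, adjusted p = 0.0876), Psat1 (-0.28, 0.0988), Shmt2 (-0.28, 0.0795), Gldc (-0.23, 0.142) and Phgdh (-0.18, 0.182). The share of all genes at that unadjusted threshold was not counted. The 5 therefore has no background here and cannot be set against the adjusted shares. The remaining differences were -0.20 for Mthfd1l, -0.17 for Aldh1l2, -0.13 for Mthfd2, -0.12 for Psph and 0.05 for Mthfd1. That Shmt1 and Gldc passed the threshold at 72 h and not at 48 h is thus not shown to be a difference between the times.

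Mitochondrial and cytosolic enzymes of the same step were set against each other as a ratio of FPKM in each library. Shmt2 over Shmt1 was 1.19 and 1.095 with tamoxifen and 1.49 and 1.36 with ethanol at 48 h, and 0.858 and 0.931 with tamoxifen and 1.09 and 1.06 with ethanol at 72 h. Mthfd1l over Mthfd1 was 0.310 and 0.287 with tamoxifen and 0.416 and 0.409 with ethanol at 48 h, and 0.243 and 0.221 with tamoxifen and 0.376 and 0.391 with ethanol at 72 h. Mthfd2 over Mthfd1 was 0.665 and 0.612 with tamoxifen and 0.853 and 0.842 with ethanol at 48 h, and 0.498 and 0.522 with tamoxifen and 0.768 and 0.766 with ethanol at 72 h. All 3 ratios of a mitochondrial to a cytosolic enzyme were lower in both tamoxifen libraries than in both ethanol libraries of the same time. They are not separate observations, since 2 of them share Mthfd1 as denominator and each numerator was itself called lower at both times. How many of all gene pairs part in this way was not counted. The ratios to Phgdh given below part likewise, so the parting is not particular to mitochondrial over cytosolic enzymes. With 2 libraries against 2, the exact two-sided permutation test cannot give a p below 0.333, and no other test of these ratios was run. Within serine synthesis, Psat1 over Phgdh was 2.07 and 1.95 with tamoxifen and 2.43 and 2.32 with ethanol at 48 h. At 72 h it was 1.23 and 1.28 with tamoxifen and 1.59 and 1.60 with ethanol. Psph over Phgdh was 0.276 and 0.283 with tamoxifen and 0.327 and 0.347 with ethanol at 48 h. Its 72 h values were 0.206 and 0.231 with tamoxifen and 0.246 and 0.256 with ethanol. Shmt2 over Phgdh was also lower in both tamoxifen libraries than in both ethanol libraries of each time. Psat1 over Psph overlapped at 48 h and parted at 72 h, with tamoxifen lower.

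**Figure D3:**
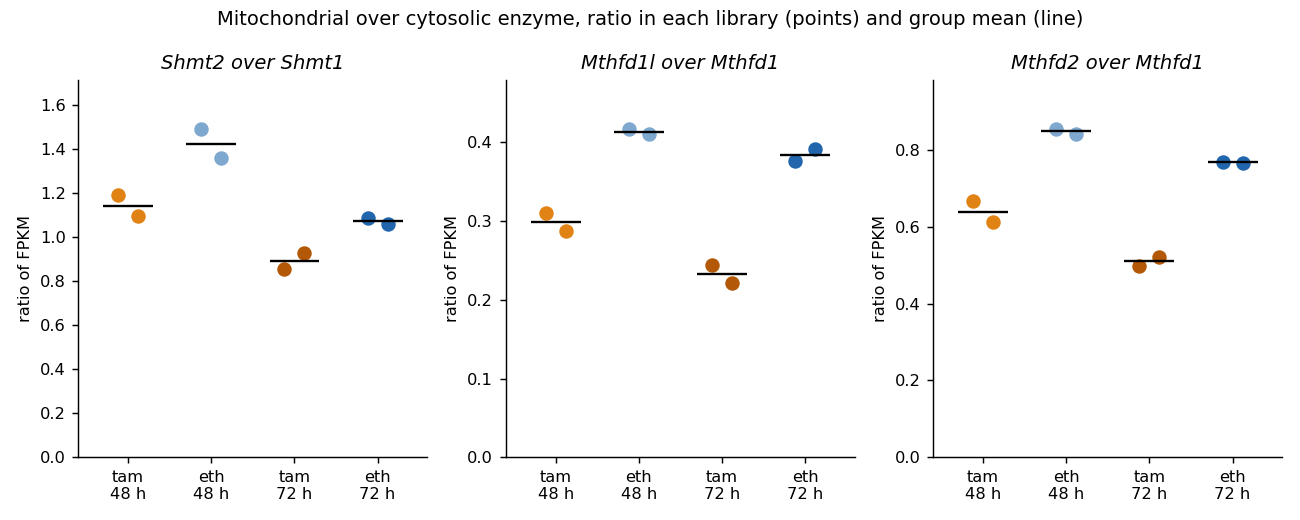
Ratio of FPKM of a mitochondrial to a cytosolic enzyme (vertical axes from 0) in each library, tamoxifen (tam) left of ethanol (eth) at each time, with the group mean as a line. In each panel the tamoxifen points lie below the ethanol points of the same time, and Shmt2 over Shmt1 is below 1 only in the 72 h tamoxifen libraries.

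The order of levels was stable at its ends. Psat1 led and Aldh1l2 was last in all 4 groups, Psat1 making up between 22.3% and 29.1% of the summed FPKM of the 10 genes. At 48 h the ethanol order was Psat1, Mthfd1, Phgdh, Mthfd2, Shmt2, Shmt1 and Gldc, Mthfd1l, Psph and Aldh1l2, where Shmt1 and Gldc overlapped. The 48 h tamoxifen order of means was the same, but there Mthfd2 and Shmt2 overlapped while Shmt1 and Gldc did not. At 72 h Phgdh stood above Mthfd1 and Gldc above Mthfd2 in both treatments. Shmt1 stood above Shmt2 only in the 72 h tamoxifen group, where Mthfd1l and Psph overlapped. The sum of the 10 genes was 663 and 638 FPKM with tamoxifen and 759 and 741 FPKM with ethanol at 48 h, and 641 and 627 FPKM with tamoxifen and 831 and 818 FPKM with ethanol at 72 h.

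The ethanol cells also differed between the times. Phgdh stood at 155% and Gldc at 161% of their 48 h means in the 72 h ethanol libraries, with log2 changes of 0.63 ± 0.05 (adjusted p = 7.02e-06) and 0.68 ± 0.06 (adjusted p = 9.05e-06). Shmt2 was at 79.3% (-0.33 ± 0.05, adjusted p = 0.000527). Of the 10 genes 4 were called higher at 72 h, where 38.0% of all genes were, and 1 lower, where 19.2% were, out of 57.2% called in either direction. Without Aldh1l2, which entered through the 72 h ethanol libraries, 3 of 9 were called higher. The other higher calls, Psph (0.20 ± 0.06, adjusted p = 0.0172) and Aldh1l2 (0.28 ± 0.11, adjusted p = 0.0484), were lost when the libraries were rescaled by median ratios. That scaling moved the median change of all genes from 0.11 to -0.00 and the share of higher calls from 66.4% to 49.8%, and it called Mthfd1l (-0.21, adjusted p = 0.0203) and Mthfd2 (-0.25, adjusted p = 0.00322) lower. Psph was also lost without ethanol 48 h replicate 1 (adjusted p = 0.107) and without ethanol 72 h replicate 2 (0.106), and Aldh1l2 without any 1 of the 4 libraries (0.104 to 0.167), so the count of higher genes was 2 to 3 there. The changes of Psat1 (0.06), Shmt1 (0.07) and Mthfd1 (0.02) were not called, and each turned negative under that scaling.

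Neighbouring steps of metabolism were read from lists of genes, and each count of called genes stands against the background of calls given above. Counts at an unadjusted p under 0.05 have no such background, because their share over all genes was not counted. Of 5 serine and glycine transport and breakdown genes tested, 3 were lower with tamoxifen at 48 h and 4 at 72 h, with a median log2 change of -0.38 at 72 h. Slc1a4, a transporter of serine and alanine, averaged 12.7 ± 0.22 FPKM with tamoxifen and 20.4 ± 0.61 FPKM with ethanol at 72 h (log2 change -0.64, adjusted p = 5.26e-05). Slc1a5, which carries glutamine and other neutral amino acids, averaged 33.8 ± 1.11 FPKM with tamoxifen and 47.1 ± 1.28 FPKM with ethanol (-0.47, adjusted p = 0.000146). Both were also lower at 48 h.

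Of 5 glycine cleavage and threonine genes, limma called 0 at 48 h, with 0 at an unadjusted p under 0.05, and 2 lower at 72 h. Tdh, the threonine dehydrogenase, averaged 107 ± 3.80 FPKM with tamoxifen and 141 ± 4.45 FPKM with ethanol at 72 h (log2 change -0.40, adjusted p = 0.000465). Gcsh, the lipoyl carrier protein that works with GLDC, averaged 93.2 ± 1.59 FPKM with tamoxifen and 110.3 ± 6.01 FPKM with ethanol (-0.24, adjusted p = 0.00904).

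Of 13 folate genes tested outside the 10, limma called 0 higher and 1 lower at 72 h, and at an unadjusted p under 0.05 there were 2 higher and 4 lower. Among those not called, the folate transporter gene Slc46a1 had 3.49 ± 0.15 FPKM with tamoxifen and 2.59 ± 0.48 FPKM with ethanol at 72 h (log2 change 0.33, adjusted p = 0.0586). Limma called 0 of the 13 at 48 h, where 2 had an unadjusted p under 0.05 upward and 3 downward. The median of the list at 72 h was -0.03, near the -0.01 of all genes.

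Of 8 methionine cycle and transsulfuration genes tested, 4 were lower and 1 was higher at 72 h. Mat2a, which makes S-adenosylmethionine, averaged 93.6 ± 1.73 FPKM with tamoxifen and 117 ± 0.92 FPKM with ethanol (log2 change -0.32, adjusted p = 0.0013), and the methionine synthase gene Mtr averaged 7.68 ± 0.57 FPKM with tamoxifen and 10.2 ± 0.31 FPKM with ethanol (-0.36, adjusted p = 0.00416). The higher one was Mtrr, which reactivates methionine synthase (0.22, adjusted p = 0.0392). Of 6 purine synthesis genes, 3 were lower at 72 h, among them Ppat (-0.20, adjusted p = 0.0121), the first committed enzyme, and Pfas (-0.26, adjusted p = 0.0161), which works between the folate-dependent steps. At 48 h limma called 0 genes of either list, with 1 methionine cycle gene and 0 purine genes at an unadjusted p under 0.05.

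The known regulators did not share a direction. Of 9 tested, 5 were higher and 3 lower with tamoxifen at 72 h, and 1 higher and 1 lower at 48 h. Ddit3, the stress-induced factor CHOP, averaged 32.2 ± 3.29 FPKM with tamoxifen and 14.3 ± 1.60 FPKM with ethanol at 72 h (log2 change 1.12, adjusted p = 5.74e-05). Myc averaged 13.4 ± 1.48 FPKM with tamoxifen and 7.33 ± 0.59 FPKM with ethanol (0.79, adjusted p = 8.57e-05). Atf4, whose product activates serine enzyme genes under amino acid stress, was lower at both times, with 190.4 ± 11.0 FPKM with tamoxifen and 246 ± 1.71 FPKM with ethanol at 48 h (-0.37, adjusted p = 0.0122) and 156 ± 18.6 FPKM with tamoxifen and 190.2 ± 5.88 FPKM with ethanol at 72 h (-0.29, adjusted p = 0.013).

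Other genes listed as ATF4 targets, not all of them of amino acid metabolism, were mostly lower. Of 13 tested, 8 were lower and 1 was higher at 48 h, and 8 were lower and 2 higher at 72 h. The median log2 change of the list was -0.26 at each time. Ddit3, higher at 72 h, was placed among the regulators and not in this list. Chac1, a glutathione-degrading enzyme, averaged 9.17 ± 0.37 FPKM with tamoxifen and 19.0 ± 0.21 FPKM with ethanol at 72 h (-0.98, adjusted p = 4.07e-06). Asns, the asparagine synthetase gene, averaged 116 ± 0.24 FPKM with tamoxifen and 162 ± 0.88 FPKM with ethanol (-0.47, adjusted p = 6.81e-05). The 2 higher at 72 h were Sesn2 and Cebpb. Cth stands in this list and in that of transsulfuration.

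**Figure D4:**
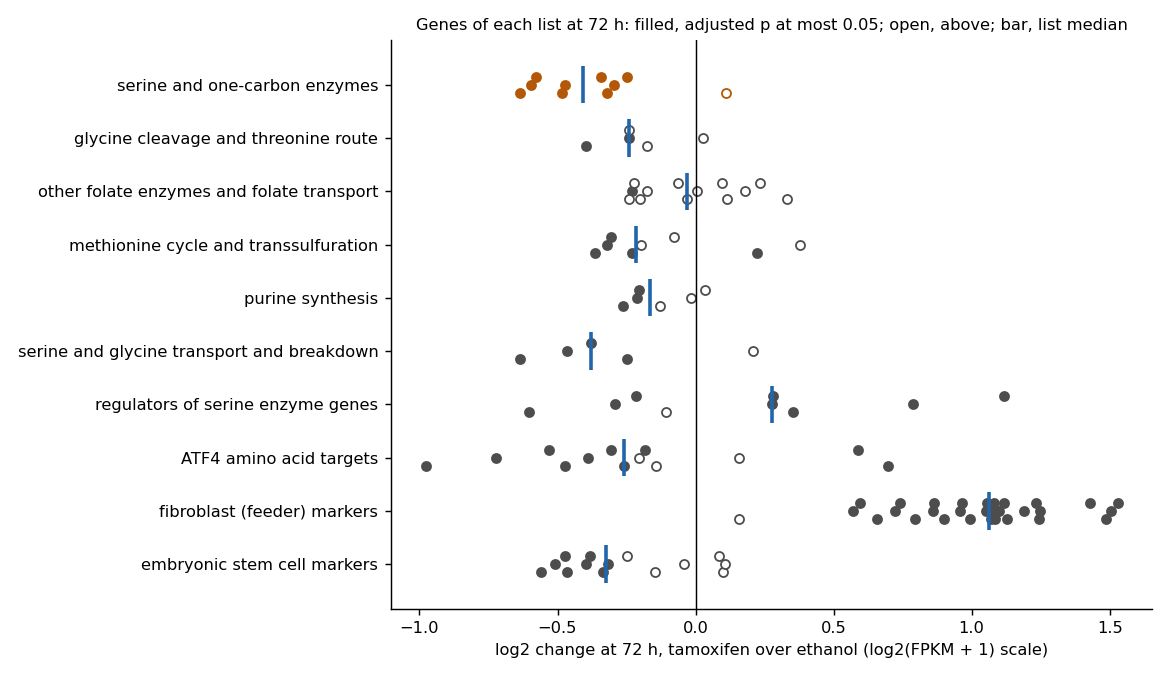
Log2 change at 72 h, tamoxifen over ethanol, on the log2(FPKM + 1) scale (horizontal axis) for the genes of each list (rows). Filled points have an adjusted p of at most 0.05 and the bar is the list median: -0.41 for the 10 enzymes, -0.38 for serine and glycine transport, -0.26 for ATF4 targets, -0.03 for other folate genes and 1.06 for fibroblast markers.

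The authors' deposited table, which compares groups on counts divided by size factors, gave 6 of the 10 enzymes lower at 48 h and 9 lower at 72 h, where it called 5.31% and 15.5% of all its genes lower. It called 0 of them higher, against 6.62% of its genes at 48 h and 16.5% at 72 h. Its mean scaled counts for Psat1 were 4202 with tamoxifen and 5589 with ethanol at 48 h (log2 change -0.41, adjusted p = 1.17e-10) and 4076 with tamoxifen and 6508 with ethanol at 72 h (-0.68, adjusted p = 2.87e-22). In that table Mthfd1 had log2 changes of 0.02 at 48 h (adjusted p = 0.904) and 0.10 at 72 h (adjusted p = 0.197).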

How the data were processed

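Polyadenylated RNA of the 8 libraries was sequenced as paired ends, per the labels' protocols. The authors deposited 1 table of FPKM per library. The submitters' processing notes name build mm9 and, in no stated role, DESeq, HTSeq, Cufflinks 1.3.0, BWA 0.6.1 and TopHat 1.4.1. A pair of comparison tables was deposited too; per the file headers they hold, for each group, a mean signal (size-factor-scaled counts), with log2 fold changes, p-values and adjusted p-values. Their log2 fold changes run ethanol over tamoxifen and the sign was turned here.

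Each FPKM table held 20789 entries for 20461 identifiers. After removal of 209 entries whose status was not OK throughout, the entry with the highest mean stood for each identifier, which gave 20388 genes. Genes with at least 1 FPKM in at least 2 libraries (11867) were tested on log2(FPKM + 1) with limma 3.58.1 (R 4.3.3, statmod 1.5.0), with a mean per group, 4 residual degrees of freedom, a mean trend and two-sided tests, and Benjamini-Hochberg adjustment within each contrast. Groups and replicate numbers came from the titles and treatment labels. Implied fragments were read from each value and its confidence bound and cover counting error only. Replicates were not copies of the same values: their mean squared difference exceeded the counting variance by a factor of 2.69 to 5.89 within groups. By the median over genes the factor was 1.80 to 3.01. Such an excess does not tell separate cultures from technical libraries. On simulated data with 200 changed genes in 11867, 69% of log2 changes of 0.5 and 90% of those of 1 were recovered in the 72 h contrast. The simulated means were those of ethanol at 48 h, and the spread was averaged over the groups. Far fewer genes were changed there than the 38.5% called at 72 h, so recovery in the real data may differ.

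Starts in the files count from 0, so 1 was added to give mm9 positions. Near copies were sought with BLAST 2.17.0 in GENCODE transcripts of GRCm38. The members and lists were chosen with earlier results of these data known. The genes named are the 10 enzymes, up to 2 genes of smallest p at 72 h from each list, and the 3 genes nearest in pattern to Phgdh, Psat1 and Mthfd2; others named, among them Atf4, Mtrr, Sesn2, Cebpb, Cth and Sox2, were chosen after their values were seen. The alternatives were another pseudocount, no filter, median-ratio scaling, no mean trend, a replicate block, fits of fewer groups, and each library left out. The values of 1 other folate gene that the rule for named genes gives are not reported here.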

Additional observations from a re-analysis of the deposited data

How the results depend on the processing

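The counts of 9 enzymes lower at 72 h and 0 of 10 called in the difference between times stayed within 1.5 times under every alternative run; leaving out each library gave 7 to 8 at 72 h. The 5 lower at 48 h were 3 without the filter and 3 to 5 with each library left out. For ethanol 72 h against 48 h, the 4 higher became 2 and the 1 lower became 3 under median-ratio scaling; leaving out each library gave 2 to 3 higher and 1 lower. That scaling turned the sign of uncalled changes: Shmt1 at 48 h to -0.021 and, between the ethanol groups, Psat1 to -0.074, Shmt1 to -0.055 and Mthfd1 to -0.11. Leaving out libraries gave -0.054 to 0.078 for Shmt1 and -0.072 to 0.041 for Gldc at 48 h, and -0.021 to 0.068 for Mthfd1 between the ethanol groups. The cause was not tested. Over all genes that scaling moved the share of higher calls at 48 h from 63.8% to 51.6%.

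Replicate numbers do not mark a pairing in the labels, and deviations of same-numbered libraries correlated at -0.28 to 0.15. With the replicate block 5 enzymes were lower at 48 h and 9 at 72 h, and 3 were higher between the ethanol groups, where Aldh1l2 was lost (adjusted p = 0.0601). With 2 libraries a group and implied fragments of 34.0 to 113 for Aldh1l2, small changes of that gene were not detectable at this depth.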

Other observations

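Likeness between genes was measured as the root mean square difference of centred log2(FPKM + 1) over the 8 libraries, and carries no test because the points share library and depth. The 10 enzymes were left out of the search and of its medians. Nearest to Phgdh (SD 0.31) among the other genes tested were Abcb8 (0.020), Cep110 (0.029) and Pgm1 (0.036), where the median gene stood at 0.302. Nearest to Psat1 (SD 0.28) were Zdhhc16 (0.041), Ttc39b (0.059) and Xrn2 (0.059), beside a median of 0.337. Nearest to Mthfd2 (SD 0.24) were Kif15 (0.033), Cinp (0.033) and Ipo11 (0.037), beside a median of 0.312. Among the 10 enzymes, Phgdh was nearest to Gldc (0.053), Mthfd1l to Mthfd2 (0.070) and Psat1 to Mthfd1l (0.072), while Mthfd1 was 0.18 from its nearest, Shmt1.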
